A study of Mus musculus with 40 samples.

Results

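The NRF2 antioxidant response was followed through 10 genes in the livers of 40 mice given TCDD, a dioxin with 4 chlorines that persists in tissue, or its vehicle. The genes were listed by symbol: the transcription factor gene Nfe2l2, its inhibitor gene Keap1 and 8 target genes, Nqo1, Hmox1, Txnrd1, Srxn1, Slc7a11, Gclc, Gclm and G6pdx. They are 10 of the 55359 genes in the count tables. All 10 passed the filter on low counts, which left 15373 genes to test, but Slc7a11 passed it through the libraries of the highest dose. Male C57BL/6 mice were gavaged 7 times, every 4 days, in a study of 28 days. By the labels it ran from day 30 to day 58 of age, while the paper puts the first gavage at postnatal day 28. The mice received sesame oil alone or TCDD in it at 1 of 7 doses from 0.03 to 30 µg/kg (0.03, 0.1, 0.3, 1 and 3 µg/kg, then 10 and 30 µg/kg). Each of the 8 groups held 5 mice, so that mice differed between groups in dose alone as far as the labels say. Tissue was taken between ZT0 and ZT3 (the first hours of light), and total RNA of whole liver pieces was sequenced, which averages over every cell type in the piece.

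NRF2, the protein of Nfe2l2, is a basic leucine zipper transcription factor that is bound and marked for degradation by KEAP1 in unstressed cells. Oxidants and electrophiles modify cysteines of KEAP1, NRF2 then accumulates in the nucleus, pairs with small MAF proteins and binds antioxidant response elements near genes of glutathione synthesis, quinone reduction, thioredoxin reduction and NADPH supply. The liver uses this response in the handling of drugs and toxicants. TCDD binds the aryl hydrocarbon receptor (AhR), whose complex binds dioxin response elements, and Nfe2l2 and Nqo1 are known AhR target genes as well.

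Promoter sequence is shown for 3 members that differed in their response, described further on: Txnrd1, which rose at 30 µg/kg, Gclm, whose change stayed under the fold threshold, and Nqo1, which rose at the lowest dose of all 10. The RefSeq promoter table (build GRCm38.p6, 250 bases before to 50 bases after each start) held 8 of the 10 members, and Gclc and Hmox1 had no entry. The core of the antioxidant response element, TGACNNNGC, and the core of the dioxin response element, GCGTG, were searched on both strands. The 250 bases before the start are printed 5′ to 3′ on the strand of the gene, with matches to either core in capitals, and a match on the opposite strand is printed as its reverse complement.
Txnrd1, chr10:82858956-82859205, plus strand: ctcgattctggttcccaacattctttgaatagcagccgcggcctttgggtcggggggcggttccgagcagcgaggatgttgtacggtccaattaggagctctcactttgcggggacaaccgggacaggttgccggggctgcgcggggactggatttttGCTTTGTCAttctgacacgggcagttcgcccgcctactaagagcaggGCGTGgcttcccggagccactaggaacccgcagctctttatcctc
Gclm, chr3:122245307-122245556, plus strand: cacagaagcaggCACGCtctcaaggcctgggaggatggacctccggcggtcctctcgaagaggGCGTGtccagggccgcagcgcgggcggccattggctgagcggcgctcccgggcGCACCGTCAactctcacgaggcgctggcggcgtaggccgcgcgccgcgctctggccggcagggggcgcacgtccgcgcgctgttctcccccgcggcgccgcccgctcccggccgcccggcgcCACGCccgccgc
Nqo1, chr8:107403206-107403455, minus strand: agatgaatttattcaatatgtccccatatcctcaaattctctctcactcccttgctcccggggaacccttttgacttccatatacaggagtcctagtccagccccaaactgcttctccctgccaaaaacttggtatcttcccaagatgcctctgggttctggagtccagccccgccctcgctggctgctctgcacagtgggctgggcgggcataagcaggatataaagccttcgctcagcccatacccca
In this Txnrd1 window TGACAAAGC lay on the opposite strand, and its reverse complement as printed begins 92 bases before the start. Gclm held TGACGGTGC on the opposite strand, printed from 134 bases before the start, together with 3 matches to GCGTG. No match to either core was found in the Nqo1 window. The antioxidant response element core was present in the windows of 5 of the 8 members, namely Nfe2l2 (TGACTCCGC), Srxn1 (TGACCTAGC), Gclm, Txnrd1 and G6pdx (TGACTGAGC), and in 12.4% of the 32851 promoter windows of the table. GCGTG was present in the windows of 5 of the 8 (Srxn1, Gclm, Keap1, Txnrd1 and G6pdx) and in 32.4% of all windows. The Slc7a11 window, like that of Nqo1, held neither, and no 2 matches overlapped. Txnrd1 has 3 windows in the table, so the 8 members have 10 windows, of which 5 held the antioxidant core and 7 held GCGTG. The Srxn1 match to the antioxidant core lay after the start. For the Nfe2l2 window and for 1 of the Txnrd1 windows, the bases after the start were not found in GENCODE transcripts of the gene. When a G was also required just before the antioxidant core, 0 of the 8 members and 4.3% of windows had a match.

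The libraries held 15496128 to 20967093 reads in genes. On the first principal component of log2 expression, which took 47.6% of the variance, 4 of the 5 mice at 30 µg/kg lay between 129 and 147 and replicate 1 of that dose lay at 81.7, against 39.1 to 67.8 for the mice at 10 µg/kg and -50.4 to -31.3 for vehicle. The log2 fold changes of Nfe2l2, Srxn1, Gclc and G6pdx at 30 µg/kg are therefore also given without that mouse. For the other members its own value is shown beside those of the other mice. Hepatocyte markers were abundant, with 8 of them summing to 106739 to 129552 CPM (counts scaled to a library size of 10 to the sixth power) in vehicle, and 7 of the 8 fell at 30 µg/kg, to sums of 31466 to 64908 CPM. All 10 macrophage markers rose at 30 µg/kg (summed level 170 to 240 CPM in vehicle and 596 to 1602 CPM at 30 µg/kg). So did 3 of 3 neutrophil markers tested (0.350 to 1.04 CPM against 8.05 to 31.6 CPM), with Ly6g and Mpo at 0 in every vehicle mouse. The same direction was called for 6 of 6 lymphocyte markers (2.80 to 3.92 against 6.20 to 12.4 CPM), 5 of 6 stellate cell markers (68.9 to 134 against 296 to 794 CPM), 3 of 5 endothelial markers (116 to 160 against 191 to 254 CPM) and 4 of 5 cholangiocyte markers (37.2 to 48.4 against 67.5 to 333 CPM), while the fifth of these fell. In vehicle the neutrophil markers tested, S100a8, S100a9 and Cxcr2, had means of 4.8, 6.4 and 1.6 reads. Cd3e, Cd3d and Cd8a of the lymphocyte list had 4.8, 2.6 and 2.8 reads, and Trem2 of the macrophage list had 5. All lay under the filter's minimum count of 10, so these genes passed it with the help of dosed libraries and their calls are a description. The part of these cell types in the changes of the NRF2 genes was not tested. In whole liver a change in the share of a cell type cannot be told apart from a change in RNA per cell.

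TCDD raised the NRF2 genes in steps, beginning with Nqo1 at 0.3 µg/kg, and at 30 µg/kg 8 of the 10 were higher than in vehicle by 1.75-fold to at least 755-fold. Keap1 and Gclm were the exceptions. The bound of 755-fold belongs to Slc7a11, which passed the filter through the libraries of that dose, and is a description. A gene was called when its Benjamini-Hochberg adjusted p in edgeR's quasi-likelihood test was under 0.05 over all genes tested and its fold change was at least 1.5. Nqo1 was called from 0.3 µg/kg, Nfe2l2 from 1 µg/kg, Hmox1 and Srxn1 from 3 µg/kg, Slc7a11 from 10 µg/kg and Txnrd1, Gclc and G6pdx at 30 µg/kg. None of the 10 was called lower at any dose. All doses were compared with the same 5 vehicle mice, so these counts are not independent of each other.

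Read against all genes, the counts were as follows. At 0.03 and 0.1 µg/kg 0 of the 10 members was called by edgeR and by DESeq2, where 0.0195% and 0.0976% of all genes tested were, and 1 member, Nqo1, had an unadjusted p under 0.05 at each. The member count was 1 at 0.3 µg/kg (0.468% of all genes), 2 at 1 µg/kg (2.78%), 4 at 3 µg/kg (6.75%) and 5 at 10 µg/kg (21.8%). At 30 µg/kg it was 8 of 10, where 42.1% of all genes were called and 23.2% were called higher. Without Slc7a11 it was 7 of 9, and the 5 at 10 µg/kg include this gene too. The median log2 fold change of the 10 members was 0.86 at 10 µg/kg and 2.09 at 30 µg/kg, with Slc7a11 at its lower bound, and that of all genes tested was 0.01 and 0.03. Over the 9 members that had counts in vehicle, the median was 0.08 at 0.03 µg/kg, 0.07 at 0.1 µg/kg, 0.22 at 0.3 µg/kg, 0.25 at 1 µg/kg and 0.38 at 3 µg/kg. Over the same 9 it was 0.48 at 10 µg/kg (the value of Txnrd1) and 1.73 at 30 µg/kg (that of G6pdx). The higher medians of the 10 members include Slc7a11, which passed the filter through the libraries of the highest dose. The balance of all genes depended on the scaling of the libraries. With TMM scaling 3567 of the 6476 genes called at 30 µg/kg were higher (2097 of 3347 at 10 µg/kg), and with scaling to total counts alone 6402 of 7961 were (2980 of 3736), as the median of all genes moved to 0.52 (0.22 at 10 µg/kg), so that the members' changes are given relative to TMM scaling.

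**Figure D1:**
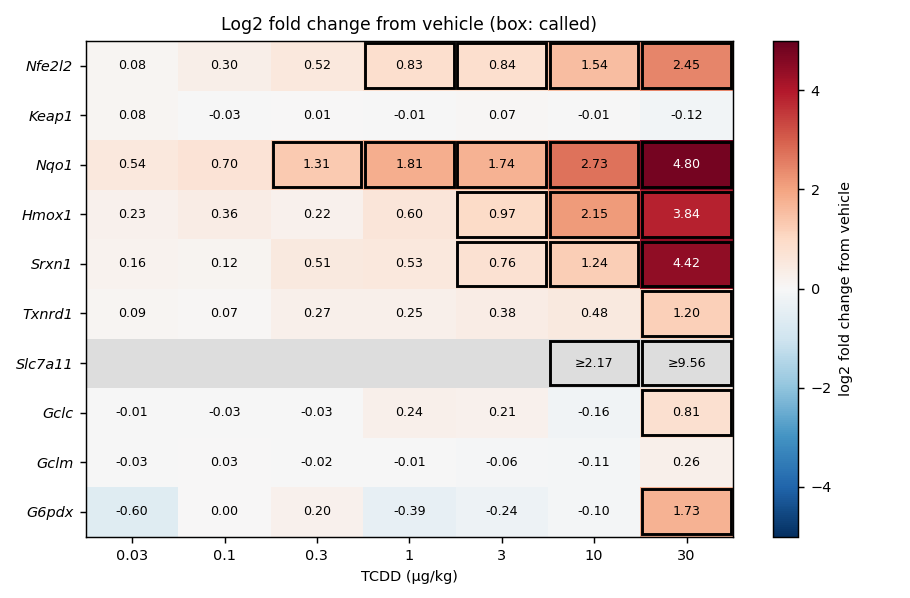
Log2 fold change of each member (rows) from vehicle at each TCDD dose in µg/kg (columns), from edgeR's fit of 5 mice per group. Boxes mark called changes; Slc7a11, with no counts in vehicle, is grey and has lower bounds of 2.17 and 9.56, and the boxed cells widen from Nqo1 alone at 0.3 µg/kg to 8 members at 30 µg/kg.

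Along the 8 ordered dose levels, an upward slope was called for 8 of the 10 members at an adjusted p under 0.05, where 57.7% of all genes tested had a slope in either direction and 31.5% an upward one. Slc7a11 is among the 8 and passed the filter on low counts through the highest dose, so its slope is a description. Keap1 (adjusted p = 0.400) and Gclm (adjusted p = 0.202) had no called slope. Most of the change lay at the top of the dose range. Between neighbouring doses up to 3 µg/kg no member differed by the call rule in edgeR's test, in 5 comparisons in which 0.0195%, 0.039%, 0.0455%, 0.241% and 0.0585% of all genes were called, and the unadjusted p of Nqo1 was under 0.05 in 3 of these. From 3 to 10 µg/kg, Nfe2l2, Nqo1 and Hmox1 rose (6.77% of all genes called), and without replicate 3 of 10 µg/kg Nfe2l2 was no longer called. From 10 to 30 µg/kg, 8 members rose (21.1% of all genes called), and the step of Slc7a11 is again a description.

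Nfe2l2 (ENSMUSG00000015839), which encodes NRF2 itself, stood at 95.7, 65.8, 70.2, 77.7 and 65.5 CPM in the 5 vehicle mice, a mean of 75.0 ± 12.6 CPM (SD, n = 5). At 1 µg/kg it stood at 169, 92.4, 107, 153 and 145 CPM, and 1 of these 5 mice lay within the vehicle range. The log2 fold change there was 0.83 (SE 0.19), with an adjusted p of 0.00754 in edgeR's quasi-likelihood test. At 3 µg/kg the mice stood at 151, 108, 134, 155 and 122 CPM, now all above every vehicle mouse. Mice at 10 µg/kg reached 211, 174, 309, 240.0 and 159 CPM, a log2 fold change of 1.54. The 30 µg/kg mice had 299.8, 378, 422, 477 and 471 CPM, a mean of 409 ± 73.3 CPM. No mouse of this dose lay within the vehicle range. The rise from vehicle to 30 µg/kg was 2.45 on the log2 scale (SE 0.20, adjusted p = 5.90e-13), and 2.54 without replicate 1. The step from 10 to 30 µg/kg, 0.90 (SE 0.19), was called as well.

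Keap1 (ENSMUSG00000003308), the cysteine-rich adaptor that leads NRF2 to degradation, was called at no dose. Vehicle mice had 38.4, 51.2, 55.5, 48.1 and 53.8 CPM, and mice at 30 µg/kg had 47.3, 38.5, 44.6, 44.5 and 52.4 CPM. The groups overlapped over nearly their whole range. The log2 fold change at 30 µg/kg was -0.12 (SE 0.11, adjusted p = 0.386), and when only total counts set the scale it turned to 0.37 (adjusted p = 0.000610), under the fold threshold in both cases. An antisense gene, Gm16754, shares 510 exonic bases with Keap1. Without strand, reads there fall in both genes and were left out of the counts of either.

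**Figure D2:**
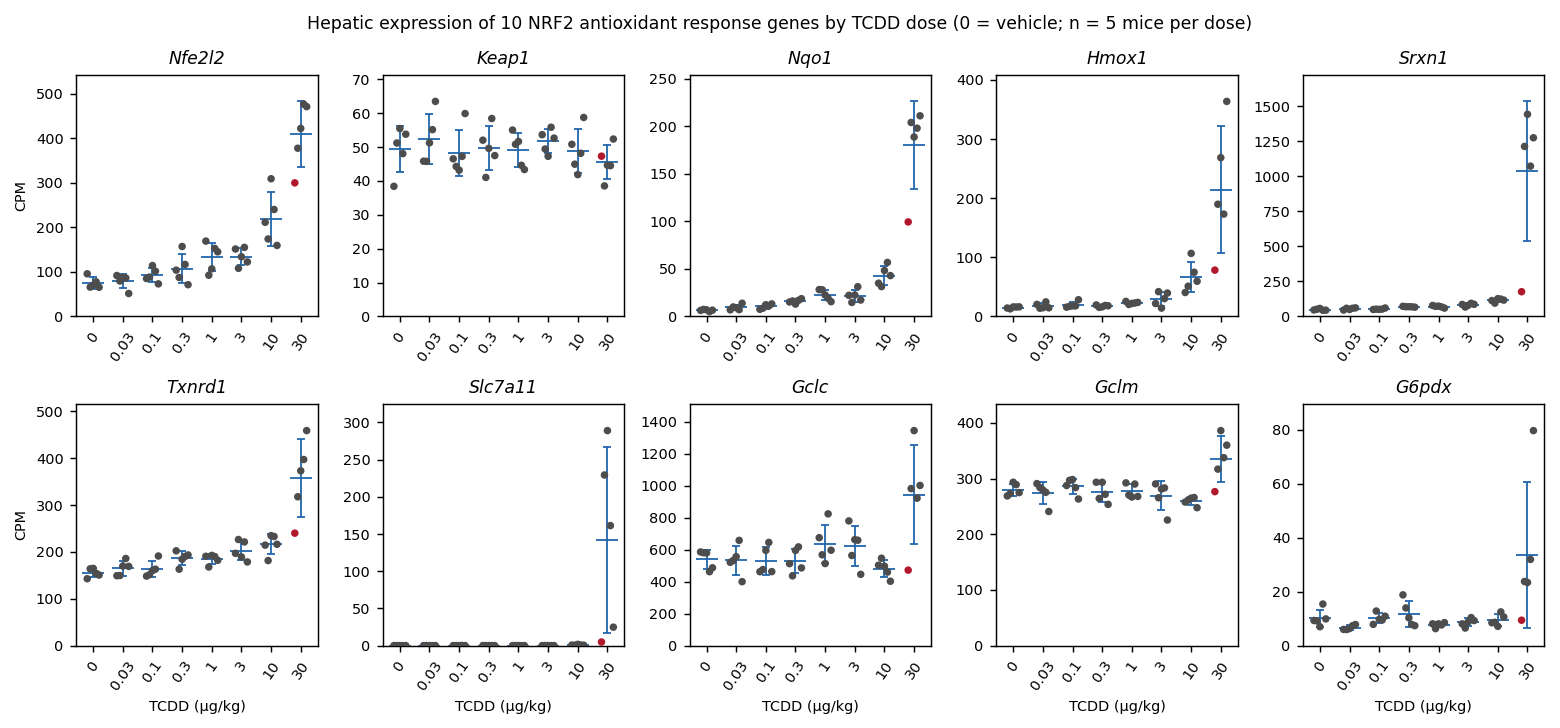
Expression of the 10 members in CPM (vertical axes, linear from 0) in each of 5 mice per TCDD dose in µg/kg (horizontal axes, 0 is vehicle), with the mean and SD in blue and replicate 1 of 30 µg/kg in red. Keap1 lay between 38.4 and 63.5 CPM in all 40 mice, while the 30 µg/kg mice stood apart for Nqo1, Srxn1 and Slc7a11.

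In quinone and heme metabolism, Nqo1 was called at 5 doses, more than any other member, and Hmox1 at 3. Nqo1 (ENSMUSG00000003849), which encodes NAD(P)H quinone dehydrogenase 1, an enzyme that reduces quinones by 2 electrons and so bypasses the reactive semiquinone, stood at 6.32, 7.34, 6.93, 5.04 and 6.59 CPM in vehicle. At 0.03 µg/kg it stood at 6.90, 9.95, 9.17, 7.09 and 13.8 CPM, overlapping with vehicle. At 0.1 µg/kg, where the values were 7.48, 8.62, 12.3, 11.0 and 13.2 CPM, all 5 mice lay above every vehicle mouse, but the log2 fold change of 0.70 (SE 0.22) had an adjusted p of 0.703. At 0.3 µg/kg the mice had 15.2, 16.3, 13.0, 16.9 and 18.6 CPM, and the change of 1.31 (SE 0.22, adjusted p = 0.000468) was called. Nqo1 levelled between 1 and 3 µg/kg, with 28.2, 28.0, 22.6, 19.1 and 15.5 CPM at the first and 22.2, 14.7, 22.5, 31.3 and 17.2 CPM at the second. The difference between those doses was not called. In the 10 µg/kg mice 34.9, 31.4, 48.3, 56.8 and 42.9 CPM were measured, a log2 fold change from vehicle of 2.73 (SE 0.22). In the 30 µg/kg mice it stood at 99.4, 204, 189, 198 and 211 CPM, a mean of 180 ± 46.0 CPM and 27.9-fold the vehicle level (log2 fold change 4.80, SE 0.24, adjusted p = 1.03e-18). Replicate 1 had the lowest of these, and still lay above every mouse at 10 µg/kg.

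Hmox1 (ENSMUSG00000005413) encodes heme oxygenase 1, which opens heme to biliverdin, carbon monoxide and iron. It stood at 14.2, 12.8, 16.1, 15.9 and 16.2 CPM in vehicle. At 1 µg/kg all 5 mice, at 25.4, 20.2, 21.9, 22.7 and 23.7 CPM, lay above every vehicle mouse, with a log2 fold change of 0.60 (SE 0.27) and an adjusted p of 0.276. At 3 µg/kg the mice diverged, with 21.8, 41.9, 14.1, 30.0 and 39.5 CPM, and 1 of them lay within the vehicle range. The change there was 0.97 (SE 0.27, adjusted p = 0.0167), and it was no longer called without replicate 2 or without replicate 5. At 10 µg/kg Hmox1 stood at 40.5, 51.0, 107, 74.7 and 59.5 CPM and at 30 µg/kg at 78.3, 190, 269, 173 and 364 CPM. The mean of the latter, 215 ± 107 CPM, was 14.3-fold that of vehicle (log2 fold change 3.84, SE 0.30, adjusted p = 1.26e-13), and the highest of the 5 mice was 4.64 times the lowest.

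Macrophages degrade the heme of old red cells and are known for high Hmox1. The summed level of the 10 macrophage markers moved with Hmox1: the group ranges were 169.6 to 240 CPM in vehicle, 329 to 339 CPM at 1 µg/kg, 252 to 473 CPM at 3 µg/kg, 419 to 674 CPM at 10 µg/kg and 596 to 1602 CPM at 30 µg/kg. Replicate 1 was lowest and replicate 5 highest of the 30 µg/kg mice for both Hmox1 and the summed markers, as they were for Nqo1, Txnrd1 and G6pdx. Replicate 4 had less Hmox1 than replicate 2 (173 against 190 CPM) and more of the markers (1324 against 1027 CPM). Of the 10 macrophage markers, 0, 0, 0, 3, 5, 9 and 10 were called higher from the lowest to the highest dose, and none was at 0 in every vehicle mouse. Of all genes tested, 0.0195%, 0.0976%, 0.468%, 2.78%, 6.75%, 21.8% and 42.1% were called in either direction at those doses. The rise was not particular to macrophages. Summed neutrophil, lymphocyte, stellate cell and endothelial markers also lay above the vehicle range in every mouse at 10 and 30 µg/kg. The part of macrophage number in the Hmox1 change was not tested.

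**Figure D3:**
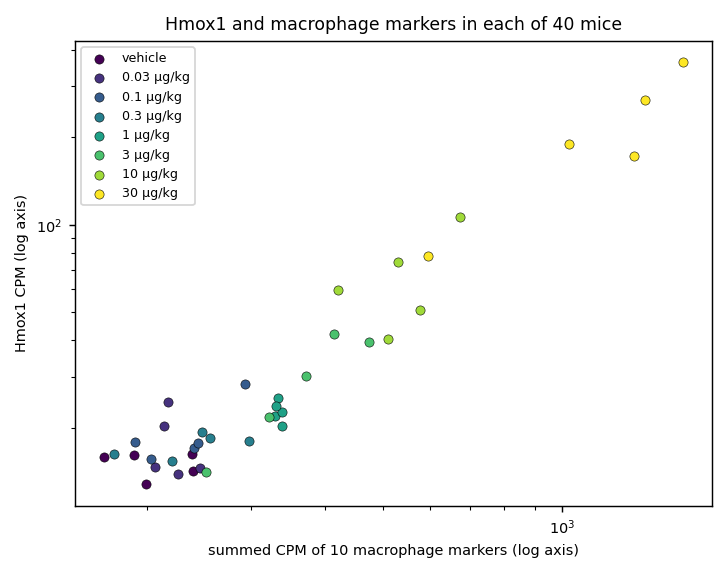
Hmox1 (vertical, CPM, log axis) against the summed CPM of 10 macrophage markers (horizontal, log axis), 1 point per mouse, coloured by TCDD dose. The 30 µg/kg mice reach 364 CPM of Hmox1 and 1602 CPM of markers, and replicate 1 of that dose, at 78.3 and 596 CPM, lies among the 10 µg/kg mice.

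Both enzymes of thiol repair rose, and they differed in how sharply. Srxn1 (ENSMUSG00000032802) encodes sulfiredoxin, which restores overoxidized peroxiredoxins. Vehicle mice had 46.1, 51.3, 56.8, 43.9 and 44.5 CPM. At 0.3 µg/kg the 5 mice lay close together, at 72.1, 68.8, 69.1, 68.6 and 65.9 CPM, all above every vehicle mouse, yet the log2 fold change of 0.51 (SE 0.24) had an adjusted p of 0.647. At 3 µg/kg the values were 85.5, 66.7, 79.0, 93.4 and 86.4 CPM, a change of 0.76 (SE 0.24, adjusted p = 0.0330). This call was lost when replicate 1, 2, 4 or 5 of vehicle or replicate 1, 4 or 5 of 3 µg/kg was left out. The 10 µg/kg mice had 113, 94.7, 127, 124 and 116 CPM (log2 fold change 1.24, SE 0.24). Then 4 of the 5 mice at 30 µg/kg reached 1213, 1443, 1072 and 1275 CPM, and replicate 1 stood at 176 CPM. That mouse lay above every mouse of the lower doses, but far below the other 4 at its own. The change from vehicle was 21.3-fold (log2 4.42, SE 0.27, adjusted p = 2.42e-16), and 4.69 on the log2 scale without replicate 1.

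Txnrd1 (ENSMUSG00000020250) encodes the cytosolic thioredoxin reductase, a selenoprotein that keeps thioredoxin reduced with electrons from NADPH. In vehicle it stood at 143, 164, 165, 154 and 151 CPM. At 10 µg/kg all 5 mice lay above every vehicle mouse, at 215, 182, 235, 233 and 216 CPM, and the log2 fold change of 0.48 (SE 0.11, adjusted p = 0.000974) was below the fold threshold. Scaled to total counts alone, it was 0.69 and was called. The 30 µg/kg mice had 240.0, 318, 373, 397 and 459 CPM, with a change of 2.30-fold (log2 1.20, SE 0.11, adjusted p = 1.54e-11). The highest Txnrd1 value at 30 µg/kg was 1.91 times the lowest. That ratio was 8.19 for Srxn1, where it rests on the low value of replicate 1. At 0.3 µg/kg Srxn1 had the smaller ratio, 1.10 against 1.24 for Txnrd1.

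Slc7a11 (ENSMUSG00000027737) encodes xCT, the subunit of the cystine/glutamate exchanger that brings in cystine for glutathione. It had no read in any of the 5 vehicle mice and at most 2 reads in any mouse up to 3 µg/kg. In the 10 µg/kg mice it had 14, 12, 32, 13 and 10 reads, or 0.672, 0.554, 1.67, 0.765 and 0.556 CPM. All 5 mice thus lay above the floor of 3 reads (0.188 CPM as a mean over vehicle), at least 4.49-fold above it on average, with an adjusted p of 0.0213 in edgeR's quasi-likelihood test. This call was lost without replicate 3, the highest of the 5 (adjusted p = 0.0541). In a fit of vehicle and 10 µg/kg alone, Slc7a11 did not pass the filter on low counts and had no test, which left 4 members called at that dose. The 30 µg/kg mice stood at 4.81, 229, 289, 161.3 and 24.8 CPM, or 104, 5513, 7579, 4064 and 588 reads. The mice of this dose were spread over 60.0-fold, the widest range of any member. Their mean of 142 ± 125 CPM was at least 755-fold above the floor, given as a description since these libraries also took the gene past the filter, and the step from 10 to 30 µg/kg was 7.39 on the log2 scale (SE 0.74).

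The 2 subunits of glutamate-cysteine ligase, the rate-limiting enzyme of glutathione synthesis, were called at the highest dose alone (Gclc) or at no dose (Gclm). Gclc (ENSMUSG00000032350), the catalytic subunit, had 585, 581, 579, 462 and 486 CPM in vehicle. Mice at 10 µg/kg had 502, 546, 496, 459 and 402 CPM, overlapping with vehicle, with a log2 fold change of -0.16 (SE 0.18, adjusted p = 0.522) that became 0.06 when only total counts set the scale. Of the mice at 30 µg/kg, 4 stood at 981, 1344, 921 and 1001 CPM, above every vehicle mouse, and replicate 1 stood at 472 CPM, inside the vehicle range. The mean change was 1.75-fold (log2 0.81, SE 0.18, adjusted p = 0.000163) and 0.98 on the log2 scale without replicate 1. With library numbers up to 27 alone, which hold 2 of these 5 mice (replicate 1 and a mouse at 981 CPM), the change was 0.31 (adjusted p = 0.309). With numbers from 28 it was 1.17 (adjusted p = 0.000528), and with this grouping as a covariate over all libraries it was 0.78 (adjusted p = 0.000312).

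Gclm (ENSMUSG00000028124), the modifier subunit that lowers the Km of the enzyme for glutamate, was called at no dose. Its vehicle values were 269, 273, 293, 289 and 275 CPM. At 10 µg/kg all 5 mice, at 258, 261, 265, 266 and 248 CPM, lay below every vehicle mouse, with a log2 fold change of -0.11 (SE 0.08, adjusted p = 0.323) that turned to 0.11 under scaling to total counts alone. Mice at 30 µg/kg stood at 276, 317, 386, 337 and 359.9 CPM. Here 4 of the 5 mice lay above every vehicle mouse, and the log2 fold change of 0.26 (SE 0.08, adjusted p = 0.00548) passed the test but not the fold threshold; scaled to total counts alone it was 0.76 and was called. Gclm shares 296 bases with Gm17494 on the opposite strand.

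G6pdx (ENSMUSG00000031400) encodes glucose-6-phosphate dehydrogenase, the entry of the pentose phosphate pathway and a main source of the NADPH that the other enzymes here use. Vehicle mice had 9.30, 9.14, 6.99, 15.4 and 9.88 CPM. Up to 10 µg/kg no group differed from vehicle by the call rule, with log2 fold changes from -0.60 to 0.20. In 30 µg/kg mice the values were 9.40, 23.8, 23.4, 31.9 and 79.6 CPM, so that 4 mice lay above every vehicle mouse and replicate 1 among them. The change was 3.32-fold (log2 1.73, SE 0.31, adjusted p = 8.64e-06), 1.97 on the log2 scale without replicate 1 and 1.10 without replicate 5. Ikbkg, whose mean count was 1952 against 238 for G6pdx, shares 418 exonic bases with it on the opposite strand. Reads there were left out of the counts of both genes.

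Per kilobase of annotated exons, the scale on which genes can be compared, the order of the members changed with dose. In vehicle Gclc led with 143 CPM per kb, followed by Gclm (44.5), Txnrd1 (21.9), Nfe2l2 (19.7), Srxn1 (17.2), Keap1 (10.5), Hmox1 (8.57), Nqo1 (4.15), G6pdx (3.29) and Slc7a11 (0). At 30 µg/kg Srxn1 led with 367 CPM per kb, ahead of Gclc (251), Hmox1 (123), Nqo1 (116), Nfe2l2 (108), Gclm (53.3), Txnrd1 (50.4), G6pdx (10.9), Slc7a11 (10.2) and Keap1 (9.69). Neighbours whose means differed by less than the larger of their SDs between mice were Txnrd1 and Nfe2l2, Nfe2l2 and Srxn1, and Nqo1 and G6pdx in vehicle. At the highest dose they were Srxn1 and Gclc, Hmox1 and Nqo1, Nqo1 and Nfe2l2, Gclm and Txnrd1, G6pdx and Slc7a11, and Slc7a11 and Keap1.

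Seen mouse by mouse at 30 µg/kg, replicate 1 had the lowest value of its group for 9 of the 10 members, all but Keap1. Replicate 3 was highest for Srxn1, Slc7a11, Gclc and Gclm, while replicate 5 was highest for Nqo1, Hmox1, Txnrd1 and G6pdx. For Slc7a11 replicate 5 was the lowest but for replicate 1. At 10 µg/kg replicate 3 had the highest value for Nfe2l2, Hmox1, Srxn1, Txnrd1 and Slc7a11.

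**Figure D4:**
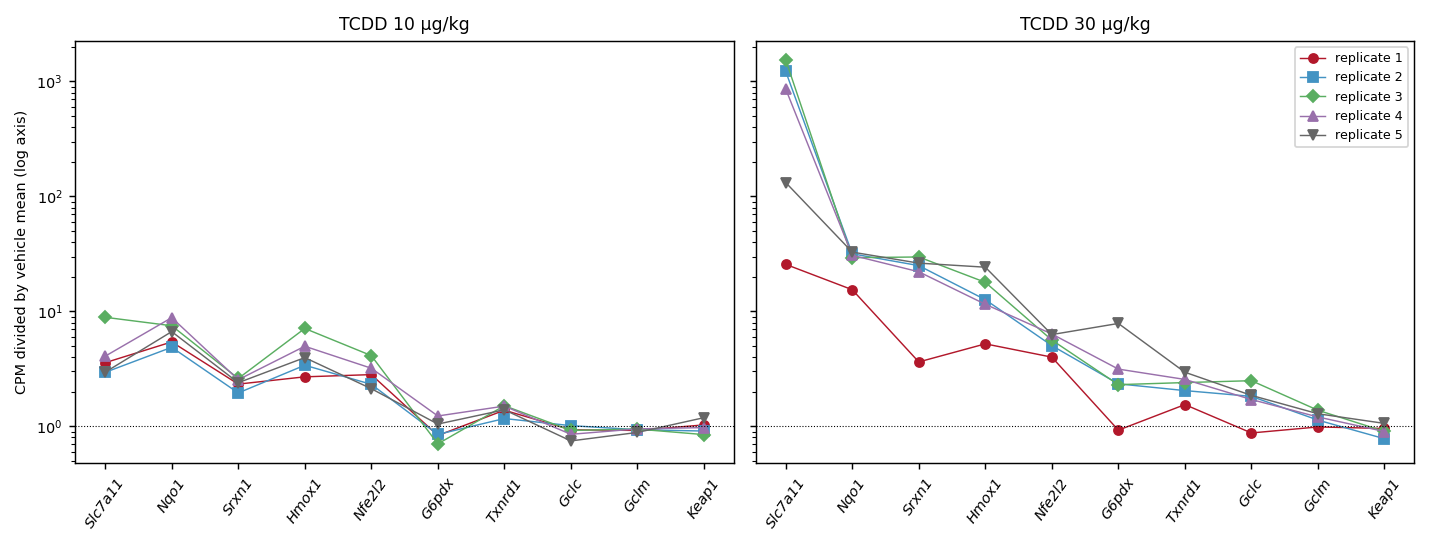
CPM of each member in each of the 5 mice at 10 and at 30 µg/kg, divided by the vehicle mean (vertical, log axis; for Slc7a11, divided by the floor of 3 reads), with 1 line per mouse. At 30 µg/kg the line of replicate 1 lies below the other 4 for every member but Keap1.

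The pattern of library numbers did not remove the calls at the highest dose except that of Gclc. In the libraries numbered up to 27 (3 vehicle mice and 2 mice at 30 µg/kg), Nfe2l2 changed by 2.12 on the log2 scale, Nqo1 by 4.46, Hmox1 by 3.21, Srxn1 by 3.75, Txnrd1 by 0.81 and G6pdx by 0.95, all called. In those numbered from 28 (2 and 3 mice) the same changes were 2.65, 5.07, 4.04, 4.81, 1.40 and 1.81, also called. With that grouping as a covariate, 8 members were called at 30 µg/kg. What the numbering stands for is not given in the sources used here.

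Other genes of the response were taken from lists chosen by name, and their counts at 30 µg/kg stand beside the 23.2% of all genes that were called higher and the 42.1% called in either direction. Among 26 other NRF2 target genes, 19 rose and 2 fell at 30 µg/kg, with a median log2 fold change of 1.38. The largest rises were those of Gpx2 (8.67, SE 0.75, fitted against a vehicle mean of 0.126 CPM that rests on 0 to 9 reads per mouse), a gastrointestinal glutathione peroxidase, Cbr3 (7.68, SE 0.50), a carbonyl reductase, and Abcc4 (6.51, SE 0.40), an efflux pump of the basolateral membrane. Gsta3, a glutathione S-transferase abundant in liver, fell by 1.52 (SE 0.15), and Osgin1 fell by 1.14 (SE 0.29). The list was called at lower doses in fewer genes, 9 of 26 at 10 µg/kg (21.8% of all genes called) and 5 of 26 at 3 µg/kg (6.75%). Each of the 21 was called with an adjusted p between 1.60e-22 and 0.00113 in edgeR's test.

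Of the 12 partners and regulators of NRF2, Maff (4.32, SE 0.50) and Mafk (1.18, SE 0.18), which encode small MAF proteins, rose at 30 µg/kg, and Syvn1 (-1.53, SE 0.32), an E3 ligase of the endoplasmic reticulum, fell. The median of the list was -0.15. Without replicate 1 of that dose 6 of the 12 were called, 3 in each direction, and under scaling to total counts 5 were, 4 of them higher.

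In the pathways that supply the members' substrates, the share of genes called higher lay near that of all genes. In glutathione synthesis and recycling, 3 of 11 genes tested rose and 2 fell. Slc3a2 (2.12, SE 0.13), the heavy chain that pairs with xCT, Gsr (2.09, SE 0.18), glutathione reductase, and Gss (1.33, SE 0.13), glutathione synthetase, were the 3 that rose, and Ggt6 (-2.05, SE 0.14) and Chac2 (-0.91, SE 0.27) fell; the median was 0.11. In the pentose phosphate pathway and NADPH supply, Pgd (2.08, SE 0.16), the dehydrogenase after G6pdx, and Taldo1 (0.59, SE 0.12), transaldolase, rose among 9 genes with a median of 0.12, and 5 of the 9 were called with scaling to total counts alone.

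Genes of thioredoxins and peroxiredoxins went both ways, with 2 of 12 higher and 4 lower at 30 µg/kg and a median of 0.04. Txnip (1.98, SE 0.26), an inhibitor of thioredoxin, and Prdx3 (1.08, SE 0.12), the mitochondrial peroxiredoxin, rose. Txnrd3 (-2.01, SE 0.20), Txnrd2 (-1.22, SE 0.15), the mitochondrial counterpart of Txnrd1, and Prdx4 (-0.88, SE 0.12), the peroxiredoxin of the endoplasmic reticulum, had the largest falls. Among 5 genes that remove superoxide and peroxide, Gpx3 (3.47, SE 0.78) and Sod3 (1.42, SE 0.16), both secreted enzymes, rose, and Sod1 (-0.89, SE 0.13) and Cat (-0.83, SE 0.09), superoxide dismutase and catalase of the cell, fell, with a median of 0.13.

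AhR target genes were first called at doses from 0.03 to 30 µg/kg. Cyp1a1 and Cyp1a2 were called from 0.03 µg/kg, Cyp1b1 and Ahrr from 0.3 µg/kg, Tiparp from 3 µg/kg and Ugt1a6a at 30 µg/kg, and 6 of the 6 genes tested rose at 30 µg/kg with a median log2 fold change of 6.66 when Ahrr is taken at its bound. Cyp1b1 (12.37, SE 0.38) and Cyp1a1 (11.75, SE 0.27) changed most, and Ahrr rose at least 358-fold. Nqo1 was thus called at the same lowest dose as Cyp1b1 and Ahrr. ATF4, a factor of the amino acid and integrated stress response, also acts on Slc7a11. Of 8 genes of its list 4 rose at 30 µg/kg, with Fgf21 (6.61, SE 0.64), Atf3 (3.76, SE 0.43) and Asns (3.69, SE 0.62) the largest and a list median of 1.20, while Atf4 itself (-0.29, SE 0.13), named after its value was seen, was not called.

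**Figure D5:**
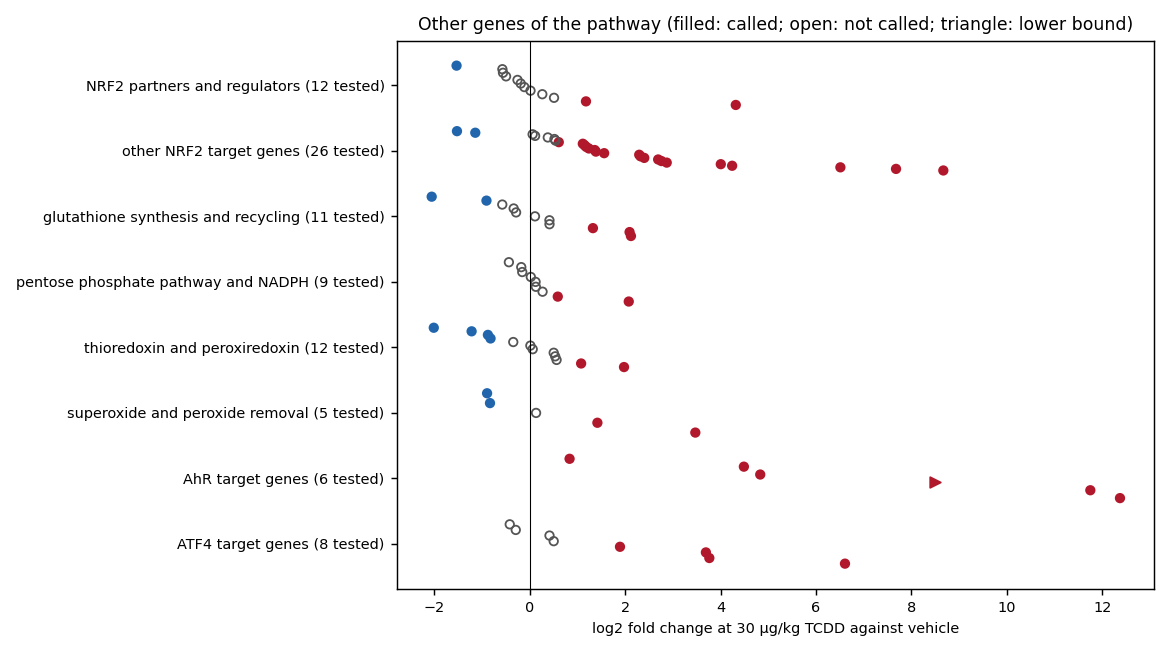
Log2 fold change at 30 µg/kg against vehicle (horizontal) of each tested gene in 8 lists (rows; within a row, points are ordered by value), with called genes filled, others open and the triangle for Ahrr at its lower bound. The other NRF2 target genes lie mostly right of 0, with 19 of 26 called higher, while the lists of glutathione, thioredoxin and superoxide genes hold genes on both sides.

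The genes whose log2 CPM followed each risen member most closely over the 40 libraries were taken from 10789 genes with a mean of at least 50 counts, as a description, since libraries fall into dose groups and any genes that move with dose correlate. Srxn1 was followed by Slc48a1 (Pearson r = 0.98) and Cbr3 (0.98), Slc7a11 by Sdcbp (0.97) and Srxn1 (0.96), and Txnrd1 by Eya3 (0.95) and Srxn1 (0.94). Nqo1 was closest to Gstm3 (0.95) and Ctss (0.95), Nfe2l2 to Tbcel (0.95) and Ugdh (0.94), and Hmox1 to Lgmn (0.97) and Lyz2 (0.96), the latter a marker of the macrophage list. Lower values were found for Gclc, with Mpp6 (0.84) and Nln (0.83), and G6pdx, with Gusb (0.82) and Pgd (0.82), the next NADPH-producing enzyme of its pathway.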

How the data were processed

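Liver RNA of 40 mice was sequenced as 150 bp paired-end reads. For every library the authors deposited STAR's raw read counts of each gene, of which the unstranded column was used. According to the submitters' processing notes, FastQC 0.11.7, Trimmomatic 0.39 and STAR 2.7.3a were used. The notes name the builds GRCm39 and mm10 without their roles, so only RefSeq promoter windows carry coordinates. First-strand reads made up 50.0% to 50.3%, so strand cannot separate antisense and overlapping genes, and reads on bases they share fell in several genes. Reads in no gene (3.34% to 7.36%), in several genes (4.84% to 5.90%) or unmapped (2.47% to 11.3%), and multimapped reads (5.24% to 7.43%), were left out of library sizes. A further deposited table holds normalized log2 values and entered an alternative test as it is, although a log2(value + 1) step had been foreseen for linear values.

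Gene names came from GENCODE M21 (52083 of 55359 identifiers). In R 4.3.3, edgeR 4.0.16 fitted all 40 libraries together by quasi-likelihood, with a separate mean for each dose, after filterByExpr (minimum count 10, minimum total count 15) and TMM scaling, and each dose was tested against vehicle and against the next lower dose. A call needed a Benjamini-Hochberg adjusted p under 0.05 over all genes tested and a fold change of at least 1.5, the fold threshold of the study, whose posterior probability was replaced by edgeR. A trend was a slope over ordered dose levels. CPM used TMM library sizes, log2 CPM a prior count of 2, and fold changes against groups with at most 3 counts in every library are lower bounds against that floor. SEs and p-values include the spread between mice, while floors cover counting error only.

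Alternatives were DESeq2 1.42.0, other scalings and filters, a fit of 2 groups alone, the run of title numbers (up to 27, 19 libraries; from 28, 21 libraries) as a covariate or alone, limma 3.58.1 on the log2 table, no fold threshold and leaving out each library. Those on the gene lists were added after the data were seen. The members and lists were chosen with earlier results of these data known. All members were named; of each list, up to 3 called genes per direction with the largest change at 30 µg/kg and a mean of at least 100 counts; and of each member called there, the 2 genes of highest r.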

Additional observations from a re-analysis of the deposited data

Results flagged for a closer look

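Among 77 groups of 5 mice with reads, 10 held a mouse whose log2 CPM lay farther from that of the nearest other mouse than 0.71 of the range of the group. Chance alone marks about 1 in 20 groups of normally spread values, while a group in which 1 mouse alone has reads is always marked. Replicate 1 of 30 µg/kg stood low for Nqo1, at 99.4 CPM against 189 to 211 CPM in the other 4 mice, and for Srxn1, at 176 CPM against 1072 to 1443 CPM. Replicate 5 of 0.1 µg/kg stood high for 3 members, with Keap1 at 59.9 CPM (others 43.2 to 47.2 CPM), Hmox1 at 28.2 CPM (15.6 to 17.9 CPM) and Srxn1 at 59.97 CPM (49.4 to 52.2 CPM). Nfe2l2 was low in replicate 5 of 0.03 µg/kg, at 51.4 CPM against 79.5 to 91.8 CPM. Slc7a11 was marked in replicate 3 of 10 µg/kg, at 1.67 CPM against 0.554 to 0.765 CPM. It was also marked where 1 mouse alone had any read: 0.133 CPM (2 reads) in replicate 4 of 0.1 µg/kg, 0.0630 CPM (1 read) in replicate 3 of 1 µg/kg and 0.0597 CPM (1 read) in replicate 2 of 3 µg/kg, all under the floor of 3 reads.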

How the results depend on the processing

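Of the member fold changes at 10 and 30 µg/kg, 222 alternative values kept direction and call, 5 lost and 4 gained a call and 8 turned sign, beside 194, 1, 0 and 5 when 1 library was left out. The 8 members called at 30 µg/kg by edgeR were the 8 called by DESeq2, by limma and whichever library was left out (8 to 8), and 7 were called in run 1 alone (library numbers up to 27). Runs alone hold fewer mice: run 1 called 0 members at 0.3 µg/kg, 1 at 1 µg/kg, 1 at 3 µg/kg and 3 at 10 µg/kg, and run 2 called 1 at 1 µg/kg and 2 at 3 µg/kg. At 3 µg/kg limma on the deposited log2 values called 2 members against 4, and leaving out 1 library gave 2 to 4, the 2 without TCDD 3 µg/kg replicate 5. Turned signs all belonged to changes that were not called. When only total counts set the scale these were, at 10 µg/kg, Keap1 (0.19), Gclc (0.0553), Gclm (0.11) and G6pdx (0.10), and at 30 µg/kg Keap1 (0.37). Keap1 at 10 µg/kg was also 0.000399 without a filter, 0.00957 with a mean of at least 50 counts and 0.00112 with vehicle and this dose alone, and -0.0927 to 0.0373 when 1 library was left out; G6pdx there was -0.22 to 0.10, the upper value without vehicle replicate 4. Scaling to total counts called 5 NRF2 partners and 5 pentose phosphate genes at 30 µg/kg (3 and 2 in the report), and leaving out TCDD 30 µg/kg replicate 1 called 6 partners. With a G required before the antioxidant core, 0 of 8 members held it in a window, against 5. The causes were not tested, beyond the smaller number of mice in the runs. No paired analysis was possible because no label pairs mice across doses, and replicate numbers follow accession order. A block of 6 levels from the run and the place of each library number within its set of 3 called the same members at every dose, with the SE of Nfe2l2 at 30 µg/kg at 0.155 against 0.201 and the adjusted p of Slc7a11 at 10 µg/kg at 0.000805 against 0.0213 in edgeR. At these depths Slc7a11 could not be measured below 3 reads per library, and 5 mice per group left changes such as that of Srxn1 at 3 µg/kg dependent on single libraries.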
